A study of Mus musculus with 11 samples.

Results

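The fatty acid oxidation and carnitine shuttle genes were followed as RNA in the hippocampus of mice that had received insulin through the nose. The set was taken by gene symbol from a list of mitochondrial and peroxisomal fatty acid oxidation genes with their regulators, and it holds 31 of the 46202 rows of the deposited table. Every one of the 31 genes was found, had a value in each library and passed the filter on low values, so none was lost from the tests. The series is titled for a shift of astrocytes towards fatty acids as fuel under insulin, and the question taken up here is whether RNA for the oxidation machinery differed from saline at each time. All mice were males of the strain labelled C3-C57B1/6J, aged 2 to 3 months and housed singly, and isoflurane was used before the brains were removed. The saline group held 3 libraries, given as saline in the titles but as Untreated, at 0 min, in the treatment and time labels. Insulin was given at 2.4 IU per nare, with 3 libraries each at 6 h and 1 h and 2 at 15 min (replicates 1 and 3, as the second was not analysed here). Saline was sampled at a single time, so time since handling and insulin cannot be told apart. Whether each library came from 1 animal is not stated outright, and p-values measure only the spread between these libraries, which may be technical. Whole tissue was sequenced, in which fewer cells of a type and less RNA per cell cannot be told apart.

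Long-chain fatty acids enter the mitochondrial matrix as carnitine esters, made by a carnitine palmitoyltransferase of the outer membrane, carried inward by a translocase and turned back into acyl-CoA by the inner enzyme. In the matrix each round of the oxidation spiral takes an acyl-CoA dehydrogenase, a hydratase, a 3-hydroxyacyl-CoA dehydrogenase and a thiolase, and electrons leave through the electron transfer flavoprotein to the respiratory chain. Peroxisomes shorten very long and branched chains with their own enzymes, and the nuclear receptor PPAR alpha with the coactivator PGC-1 alpha drives many of these genes. In the brain this pathway is known mainly from astrocytes.

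No gene of the set passed the threshold (limma, Benjamini-Hochberg adjusted p under 0.05 over all rows tested) at any time after insulin. At 15 min 0 of 31 passed, where 0.239% of all rows did, at 1 h 0 of 31 passed, where 0.877% did, and at 6 h 0 of 31 passed, where 0% did. The gene that came nearest was Ppargc1a, which encodes PGC-1 alpha, with a log2 signal lower by 0.71 at 1 h on the means. At an unadjusted p under 0.05, 5 genes lay lower and 0 higher at 15 min (Ehhadh, Eci2, Decr2, Etfa and Hadh), against 13.2% and 1.86% of all rows. At 1 h, 6 lay lower (Ppargc1a, Etfa, Ehhadh, Decr2, Eci2 and Hadha) and 2 higher (Acads and Ppara), against 12.8% and 2.87% of all rows. At 6 h these were Ppargc1a lower and Acads higher, against 4.23% and 2.75% of all rows. These counts moved with the scaling, which was also done by cyclic loess and by shifting each library to a common median (the median shift). At 15 min the 5 lower genes became 2 (Ehhadh and Eci2, with Ppara higher) under cyclic loess and 1 (Ehhadh) under the median shift, against 6% and 4.82% of all rows lower. At 1 h Ppargc1a and Etfa lay lower and Acads and Ppara higher under both, and 6 h gave the same pair as on the deposited scale. The shares of all rows for 1 h and 6 h under these scalings, and for genes higher at 15 min, are not given here. No excess over all rows is therefore read from these genes.

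**Figure D1:**
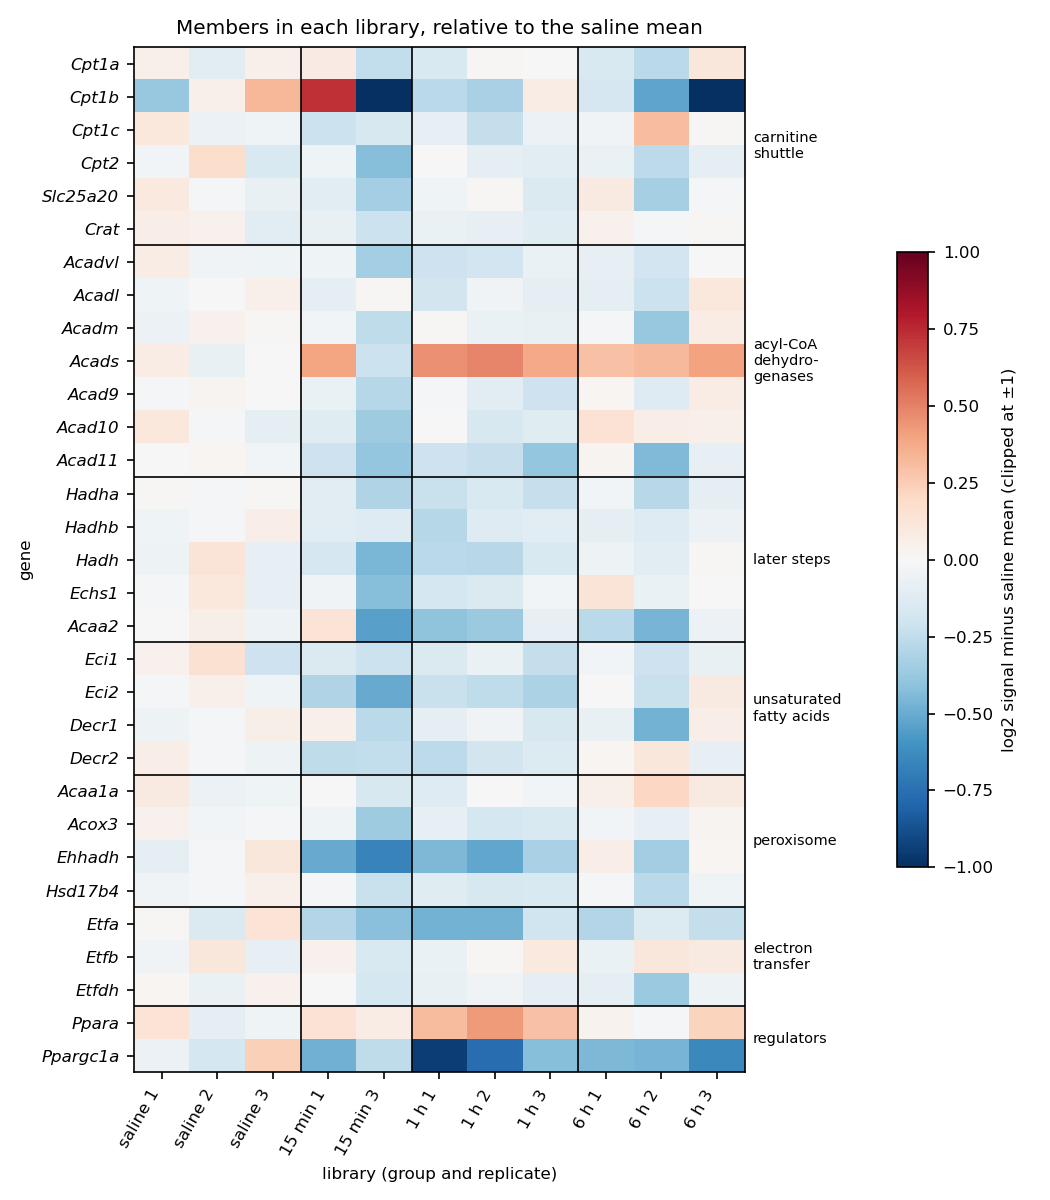
Each row is 1 of the 31 genes, grouped by role, and each column 1 of the 11 libraries. Colour gives the log2 signal minus the saline mean of that gene, clipped at ±1. Ppargc1a is blue in all 8 insulin libraries, Acads is red in all but 1 of them, and the column of 15 min replicate 3 is blue for most genes.

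Promoter sequence is shown for genes with the smallest p in each direction of a comparison with saline, where that p was under 0.05 before adjustment (Ppargc1a, Ehhadh and Acads), for Etfa, with the smallest p of the electron transfer genes, and for the stretch that Hadha shares with Hadhb. The windows are the 250 bases before the RefSeq start on GRCm38.p6, written 5′ to 3′ on the gene's own strand, which is the minus strand for all of them. The Ppargc1a window lies inside the span of that gene, before 1 of its starts and not the outermost one. RefSeq windows were matched for 25 of the 31 genes. Capitals mark matches, on either strand, to CCAAT (the CCAAT box), TGACG (the core of the cyclic AMP response element) or AAGGTCA (an extended nuclear receptor site).
Ppargc1a, chr5:51567726-51567975: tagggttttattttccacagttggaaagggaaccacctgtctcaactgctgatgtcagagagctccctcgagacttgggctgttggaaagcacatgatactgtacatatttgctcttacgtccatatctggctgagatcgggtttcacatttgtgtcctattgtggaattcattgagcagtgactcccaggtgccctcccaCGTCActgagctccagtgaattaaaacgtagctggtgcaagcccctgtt
Ehhadh, chr16:21787835-21788084: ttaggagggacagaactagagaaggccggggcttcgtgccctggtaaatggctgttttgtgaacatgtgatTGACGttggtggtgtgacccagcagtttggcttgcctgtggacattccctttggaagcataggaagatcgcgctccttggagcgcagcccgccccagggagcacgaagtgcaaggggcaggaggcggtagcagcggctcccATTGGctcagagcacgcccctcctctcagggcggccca
Etfa, chr9:55512244-55512493: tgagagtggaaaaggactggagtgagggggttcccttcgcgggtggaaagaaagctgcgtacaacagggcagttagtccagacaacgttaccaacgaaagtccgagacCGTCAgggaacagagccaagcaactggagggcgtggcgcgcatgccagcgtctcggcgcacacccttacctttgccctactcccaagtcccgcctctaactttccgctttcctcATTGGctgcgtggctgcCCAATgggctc
Acads, chr5:115119347-115119596: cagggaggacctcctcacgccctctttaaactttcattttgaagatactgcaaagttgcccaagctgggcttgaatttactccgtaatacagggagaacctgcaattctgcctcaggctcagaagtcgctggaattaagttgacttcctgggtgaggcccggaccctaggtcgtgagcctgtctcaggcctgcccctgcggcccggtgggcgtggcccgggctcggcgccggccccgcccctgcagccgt
Hadha, chr5:30154981-30155230: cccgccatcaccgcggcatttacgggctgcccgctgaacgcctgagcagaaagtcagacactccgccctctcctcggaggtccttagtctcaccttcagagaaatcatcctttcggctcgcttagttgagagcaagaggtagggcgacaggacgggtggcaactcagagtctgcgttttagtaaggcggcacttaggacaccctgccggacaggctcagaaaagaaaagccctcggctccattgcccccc
The Ppargc1a window holds TGACG on the opposite strand, 49 to 45 bases before the start. Ehhadh holds CCAAT on the opposite strand, 38 to 34 bases before the start, and TGACG on its own strand. Etfa holds CCAAT on each strand, 11 to 7 and 28 to 24 bases before the start, with TGACG farther up. No match was found in the Acads or Hadha window, which says only that these letters are not in them. CCAAT was found in 10 of the 25 windows of the set against 33.8% of all 32851 promoter windows, and TGACG in 9 of 25 against 17.8%. AAGGTCA was found in 1 of 25 (Acadm) against 4.08%, the direct repeat bound by PPAR with RXR (spacer of any 1 base) in 0 of 25 against 0.0335%, and the NRF1 palindrome in 2 of 25 (Etfdh and Ppara) against 0.782%. The median GC content was 59.6% in the set and 52.4% over all windows. These matches describe sequence, and promoter activity or binding was not measured.

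Among the regulators, Ppargc1a lay lower after insulin at all times, while Ppara did not. Ppargc1a (chr5:51454249-52115853) had log2 signals of 0.11, 0 and 0.41 in the saline libraries, -0.31 and -0.08 at 15 min, -0.77, -0.59 and -0.25 at 1 h, and -0.28, -0.29 and -0.47 at 6 h. All 8 insulin libraries lay below all 3 saline libraries, and the 2 lowest were at 1 h. The log2 change was -0.71 at 1 h (SE 0.15, 95% interval -1.04 to -0.38, 1.64-fold lower, adjusted p = 0.0629), lower in 3 of 3 libraries. At 15 min the change was -0.36 (SE 0.17, adjusted p = 0.342), or -0.19 after the median shift, and at 6 h it was -0.52 (SE 0.15, 1.43-fold lower, adjusted p = 0.642). Over all 8 insulin libraries it was -0.55 (1.47-fold lower, adjusted p = 0.185), and a moderated F test over the 3 times gave an adjusted p of 0.173. The gene passed at 1 h only when libraries were weighted by their quality (adjusted p = 0.0147) or when 1 h replicate 3, the least changed of the 3, was left out (log2 change -0.85, adjusted p = 0.0414).

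Ppara encodes the nuclear receptor PPAR alpha and was among the lowest genes of the set. Its log2 signals were -3.64, -3.86 and -3.82 in saline, -3.63 and -3.70 at 15 min, -3.46, -3.35 and -3.48 at 1 h, and -3.74, -3.79 and -3.55 at 6 h. The 3 libraries at 1 h lay above every saline library, and those at 15 min and 6 h ran among or close to them. The log2 change was 0.34 at 1 h (SE 0.15, unadjusted p = 0.0477, adjusted p = 0.312), 0.11 at 15 min and 0.08 at 6 h. Ppara was the gene of the set with the smallest p among those higher at 15 min, and that change was smaller than its standard error of 0.17 on the deposited scale. The other scalings gave larger changes, 0.37 at 15 min and 0.54 at 1 h under cyclic loess and 0.28 and 0.48 under the median shift (adjusted p of at least 0.113).

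**Figure D2:**
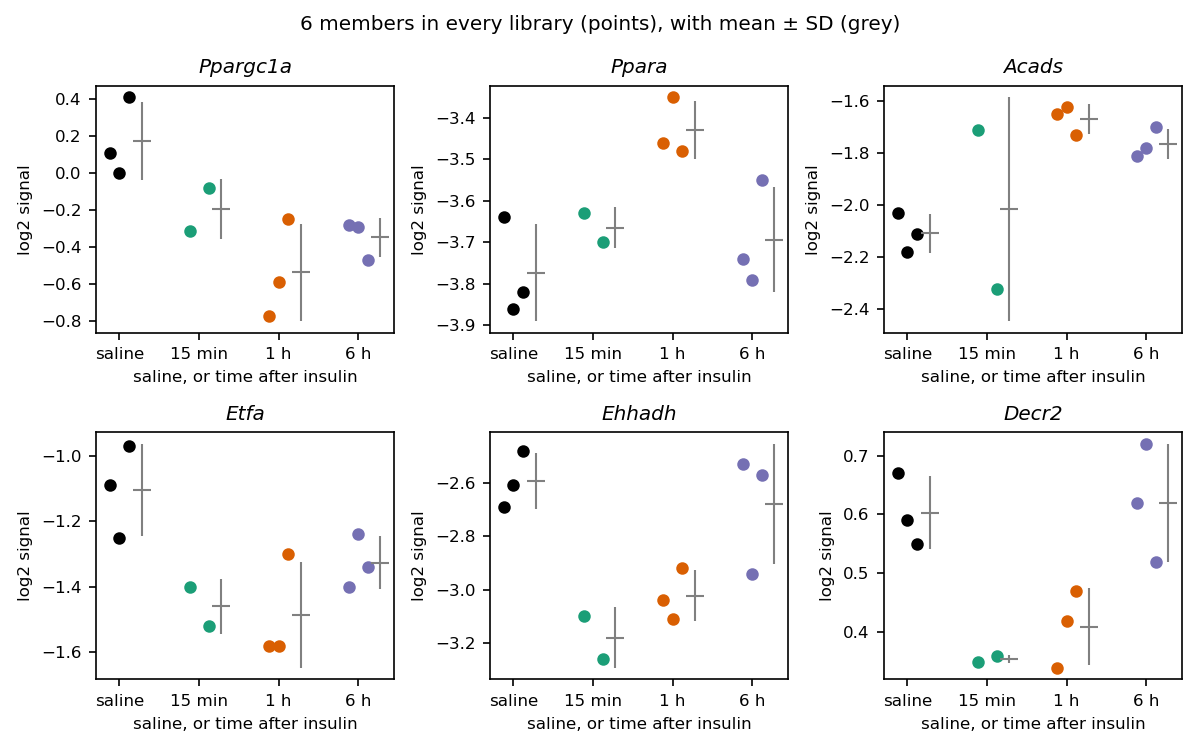
Points are the log2 signals of Ppargc1a, Ppara, Acads, Etfa, Ehhadh and Decr2 in each library, and grey bars give the mean ± SD of each group (3 libraries, or 2 at 15 min). Vertical scales differ between genes. Ppargc1a lies below all saline libraries at every time, and Ehhadh and Decr2 lie below saline at 15 min and 1 h but overlap it at 6 h.

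The carnitine shuttle genes gave no call. None of the 6 reached an unadjusted p under 0.05 against saline at any time, and their median log2 changes at the 3 times were -0.21, -0.08 and -0.09 on the deposited scale. The direction at 1 h turned with the scaling, as 4 of the 6 were positive under cyclic loess (median 0.05) and 5 under the median shift (median 0.06). At 15 min the change of Cpt1a turned from -0.08 to 0.07 and 0.09. Cpt1a, the outer membrane palmitoyltransferase that malonyl-CoA inhibits, had log2 signals of -1.45, -1.61 and -1.45 in saline, -1.42 and -1.75 at 15 min, -1.66, -1.49 and -1.51 at 1 h, and -1.66, -1.77 and -1.39 at 6 h. Its insulin and saline libraries overlapped at every time, and its 95% interval ran from -0.41 to 0.25 at 15 min, from -0.35 to 0.24 at 1 h and from -0.40 to 0.19 at 6 h. Cpt1c, the form known from neurons and placed in the endoplasmic reticulum, had log2 signals of 0.95, 0.78 and 0.80 in saline, 0.63 and 0.68 at 15 min, 0.76, 0.60 and 0.78 at 1 h, and 0.81, 1.15 and 0.85 at 6 h. It lay below every saline library at 15 min and above both 15 min libraries at 6 h, with a log2 difference between those times of 0.28 (SE 0.11, adjusted p = 0.305), or 0.14 after the median shift. Cpt1b, the muscle form, was the lowest gene of the set and the most variable, with changes of -0.47, -0.18 and -0.59 whose standard errors ran from 0.54 to 0.60. Its saline mean of -6.16 lay below the median of every library (-3.2), and the number of reads behind it is unknown. The other shuttle genes, Cpt2 of the inner membrane, the translocase Slc25a20 and the acetyltransferase Crat, had changes between -0.23 and 0.02 over the 3 times on the deposited scale.

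Levels can be set side by side between genes because the values behave as if taken per transcript length, which no source used here states. In rows with 3 or more missing values, 11.1% to 15.7% of values of a library fell in 1 bin of 0.25 when exonic length was added back, against 5.66% to 7.14% without it. On this scale the saline mean of Cpt1c (0.84 ± 0.09 SD, n = 3) lay 2.35 ± 0.08 above that of Cpt1a, a 5.08-fold higher level, and Cpt1a lay 4.66 ± 0.38 above Cpt1b, 25.3-fold. The last ratio rests on the low signal of Cpt1b, for which no read count is known. Acadvl, the dehydrogenase for very long chains, was the highest gene of the set at 2.16 ± 0.07, followed by Acaa1a at 1.15 ± 0.08. Acadvl stood 9.3-fold above Acadl, 6.71-fold above Acadm and 19.3-fold above Acads, the long, medium and short chain enzymes. Ppargc1a stood 15.4-fold above Ppara. In the order of the 31 levels, 17 of the 30 pairs of neighbours had saline libraries that overlapped, among them Cpt1c with Echs1, Crat with Decr2, and the run from Acadl through Etfa, Hadh and Acad11 to Decr1.

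Of the 7 acyl-CoA dehydrogenases, which take the first step of each round, Acads was on the deposited scale the 1 with a positive change at 15 min and 1 h. Acads (chr5:115110299-115119346), the enzyme for short chains, had log2 signals of -2.03, -2.18 and -2.11 in saline, -1.71 and -2.32 at 15 min, -1.65, -1.62 and -1.73 at 1 h, and -1.81, -1.78 and -1.70 at 6 h. All 6 libraries of 1 h and 6 h lay above all saline libraries, while the 15 min libraries lay on either side of them. The log2 change was 0.44 at 1 h (SE 0.15, 1.35-fold higher, adjusted p = 0.195), 0.34 at 6 h (SE 0.15, 1.27-fold higher, adjusted p = 0.714) and 0.09 at 15 min (SE 0.17, adjusted p = 0.832). The other dehydrogenases had changes from -0.30 to -0.04 at 15 min, from -0.27 to -0.04 at 1 h and from -0.16 to 0.09 at 6 h, all with adjusted p of at least 0.341. Acad11 had the lowest of these at 15 min and 1 h, -0.30 (SE 0.14) and -0.27 (SE 0.13), and all 5 of those libraries lay below saline. Under the median shift 5 of the 7 dehydrogenases were positive at 1 h, and Acad11 moved to -0.13 at both times. Acads stayed the highest of the 7 under both scalings, with 0.27 and 0.26 at 15 min and 0.57 and 0.58 at 1 h.

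The later steps of the spiral lay below saline on the means at 15 min and 1 h, without a call. All 5 genes had negative changes at both times on the deposited scale, with medians of -0.21 and -0.20, and 4 of 5 did at 6 h, with a median of -0.09. Hadha and Hadhb encode the alpha and beta subunits of the mitochondrial trifunctional protein, which carries the last 3 steps for long chains, and they start 273 bases apart on opposite strands of chromosome 5. Hadha had log2 signals of 0.40, 0.37 and 0.40 in saline, 0.28 and 0.09 at 15 min, 0.17, 0.24 and 0.16 at 1 h, and 0.36, 0.11 and 0.30 at 6 h. Hadhb had log2 signals of -0.36, -0.34 and -0.25 in saline, -0.43 and -0.45 at 15 min, -0.60, -0.45 and -0.42 at 1 h, and -0.41, -0.45 and -0.38 at 6 h. For both subunits all 8 insulin libraries lay below all 3 saline libraries, by small margins. Over all insulin libraries the change was -0.18 for Hadha (SE 0.07, adjusted p = 0.354) and -0.13 for Hadhb (SE 0.07, adjusted p = 0.448). After the median shift the medians were -0.03 at 15 min and -0.06 at 1 h, Hadhb turned to 0.05 at 15 min and Echs1 to 0.02 at 1 h, and Hadha over all insulin libraries came to -0.07. Hadha, Hadhb and Ppargc1a were the 3 of 31 genes with no overlap between all insulin and all saline libraries, where 4.21% of all rows lay wholly below saline and 0.718% wholly above. Hadh, the matrix 3-hydroxyacyl-CoA dehydrogenase for medium and short chains, had changes of -0.31 (SE 0.12, adjusted p = 0.263), -0.24 and -0.05 at the 3 times, the first of which became -0.14 after the median shift.

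Ehhadh, Decr2, Eci2 and Acox3, of peroxisomal oxidation and the handling of unsaturated chains, lay lower at 15 min and 1 h and near saline at 6 h on the means of the deposited scale, again without a call. Ehhadh (chr16:21761285-21787834), the peroxisomal bifunctional enzyme and a known PPAR alpha target in liver, had log2 signals of -2.69, -2.61 and -2.48 in saline, -3.10 and -3.26 at 15 min, -3.04, -3.11 and -2.92 at 1 h, and -2.53, -2.94 and -2.57 at 6 h. All 5 libraries of 15 min and 1 h lay below all saline libraries, and at 6 h only replicate 2 did. The log2 change was -0.59 at 15 min (SE 0.17, 1.5-fold lower, adjusted p = 0.178), -0.43 at 1 h (SE 0.15, adjusted p = 0.209) and -0.09 at 6 h (adjusted p = 0.886). Under cyclic loess the earlier changes were smaller, -0.36 at 15 min and -0.26 at 1 h. Decr2, the peroxisomal dienoyl-CoA reductase, had log2 signals of 0.67, 0.59 and 0.55 in saline, 0.35 and 0.36 at 15 min, 0.34, 0.42 and 0.47 at 1 h, and 0.62, 0.72 and 0.52 at 6 h. Its 15 min and 1 h libraries all lay below saline and its 6 h libraries spanned the saline range, with changes of -0.25 (SE 0.08, adjusted p = 0.213), -0.19 (SE 0.07, adjusted p = 0.241) and 0.02. Eci2, an enoyl-CoA isomerase, followed the same order with changes of -0.40 (SE 0.12, adjusted p = 0.187), -0.26 (SE 0.11, adjusted p = 0.275) and -0.04. After the median shift the changes at 15 min and 1 h shrank to -0.08 and -0.05 for Decr2 and to -0.23 and -0.12 for Eci2. The peroxisomal oxidase Acox3 had changes of -0.20, -0.14 and -0.03, with all libraries of 15 min and 1 h below saline, and after the median shift these were -0.03, -0.0027 and 0.0051. The mitochondrial counterparts Eci1 and Decr1 had changes between -0.18 and -0.10, Decr1 with its lowest at 6 h (-0.16), and their libraries overlapped saline at every time. The other peroxisomal genes, the thiolase Acaa1a and the bifunctional enzyme Hsd17b4, had changes from -0.15 to 0.12.

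Of the electron transfer flavoprotein subunits, Etfa lay below saline on the means at all times and Etfb stayed near it on the deposited scale, without a call. Etfa (chr9:55454436-55512243), the alpha subunit, had log2 signals of -1.09, -1.25 and -0.97 in saline, -1.40 and -1.52 at 15 min, -1.58, -1.58 and -1.30 at 1 h, and -1.40, -1.24 and -1.34 at 6 h. All 5 libraries of 15 min and 1 h lay below saline, and 6 h replicate 2 lay just above the lowest saline library. The log2 change was -0.36 at 15 min (SE 0.13, adjusted p = 0.248), -0.38 at 1 h (SE 0.12, 1.30-fold lower, adjusted p = 0.156) and -0.22 at 6 h (SE 0.12, adjusted p = 0.721), and at 1 h it passed only with libraries weighted by quality (adjusted p = 0.0363). Etfb, the beta subunit of the same dimer, had changes of -0.05, 0.01 and 0.04, each smaller than its standard error of 0.09 to 0.11. After the median shift Etfb came to 0.12 at 15 min and 0.15 at 1 h, and Etfa to -0.18 and -0.24. Etfdh, the oxidoreductase that passes the electrons to ubiquinone, had changes of -0.09, -0.07 and -0.17. The difference between Etfa and Etfb was not tested.

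**Figure D3:**
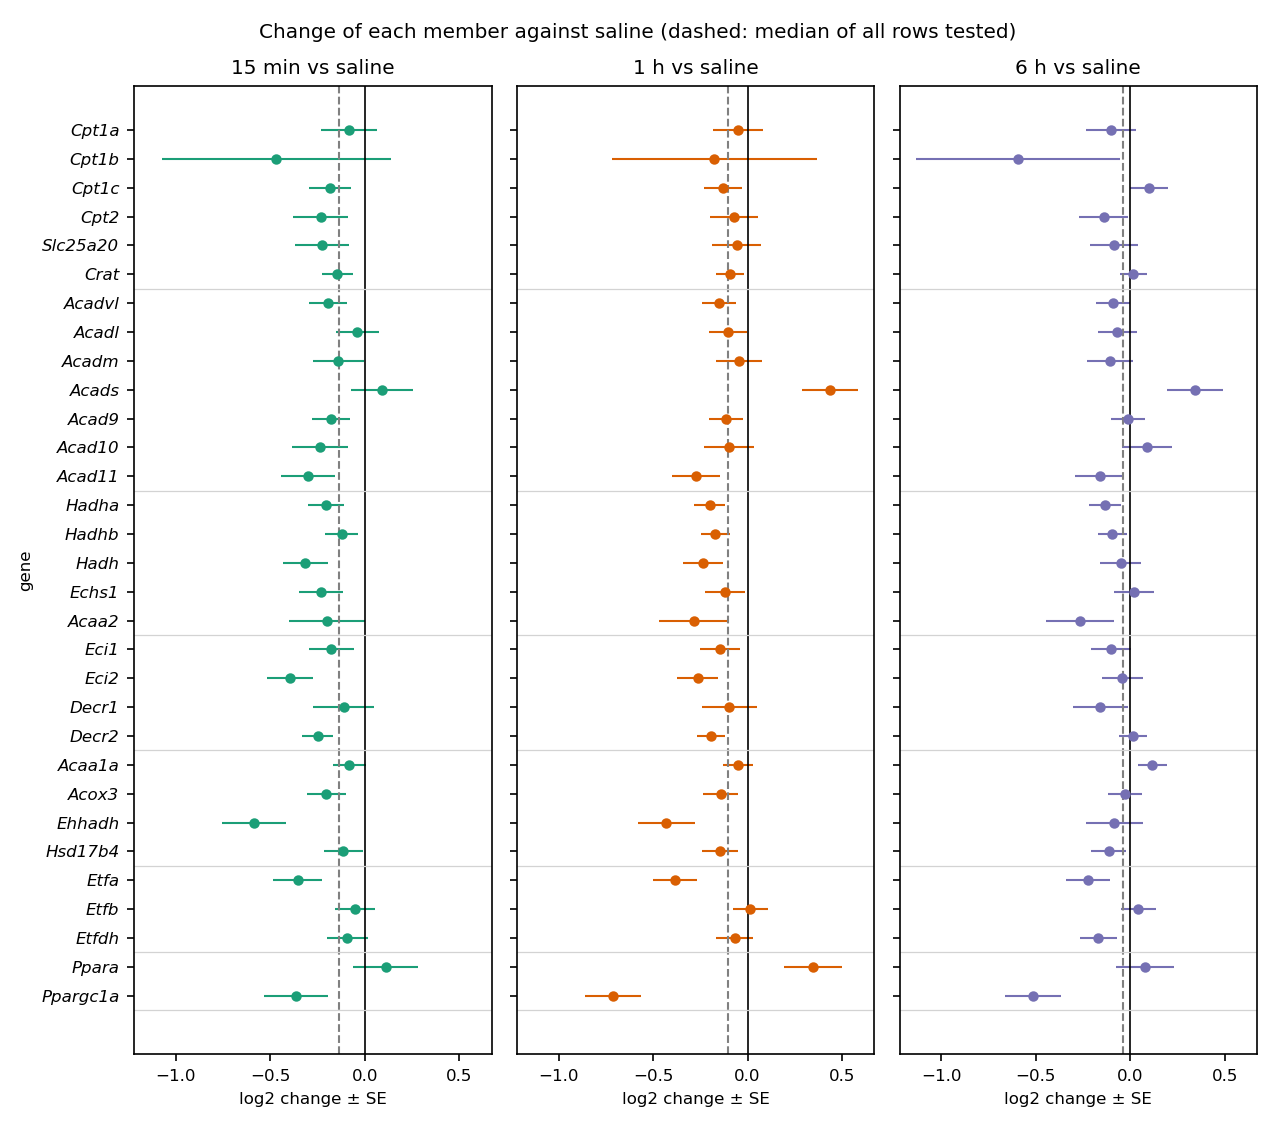
Points give the log2 change of each of the 31 genes against saline at 15 min, 1 h and 6 h, with its standard error, in the order of their roles. The dashed line is the median of all rows tested (-0.14, -0.11 and -0.04). On the deposited scale most points lie left of 0 but near the dashed line (at 1 h 28 of 31 lie left of 0, and 15 after the median shift), with Ppargc1a, Ehhadh and Etfa farther left and Acads and Ppara to the right at 1 h.

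As a set, the genes lay slightly lower than saline, and so did most of the transcriptome on the deposited scale. Fewer genes had a value at 15 min (32037 to 32427) and 1 h (32133 to 32640) than in saline (32941 to 33510). The part of that in the changes below was not tested. At 15 min 29 of the 31 had a negative change against 68.7% of all rows, and the count became 24 (against 49.9% of all rows) after cyclic loess scaling and 19 (against 44.8%) after the median shift. At 1 h 28 of 31 were negative against 66.8% of all rows, and 20 (against 50.5% of all rows) and 15 (against 44.4%) under those scalings. At 6 h 22 of 31 were negative against 57%, and 21 (against 51.3%) and 20 (against 51.1%) under the scalings. The majority below saline at 1 h was thus present on the deposited scale and after cyclic loess, and absent after the median shift. The median log2 changes of the set at the 3 times were -0.19, -0.13 and -0.09, which differed from the median of all rows by -0.06, -0.02 and -0.05. The spread between libraries of that difference was 0.06 (SD), close in size to the largest of these. At 15 min 15 of 31 genes lay below every saline library, where 31.1% of all rows did, and 0 lay above, where 6.96% did. At 1 h 15 lay below and 2 above, against 21.5% and 6.27%, and at 6 h 4 lay below and 1 above, against 8.78% and 4.31%.

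**Figure D4:**
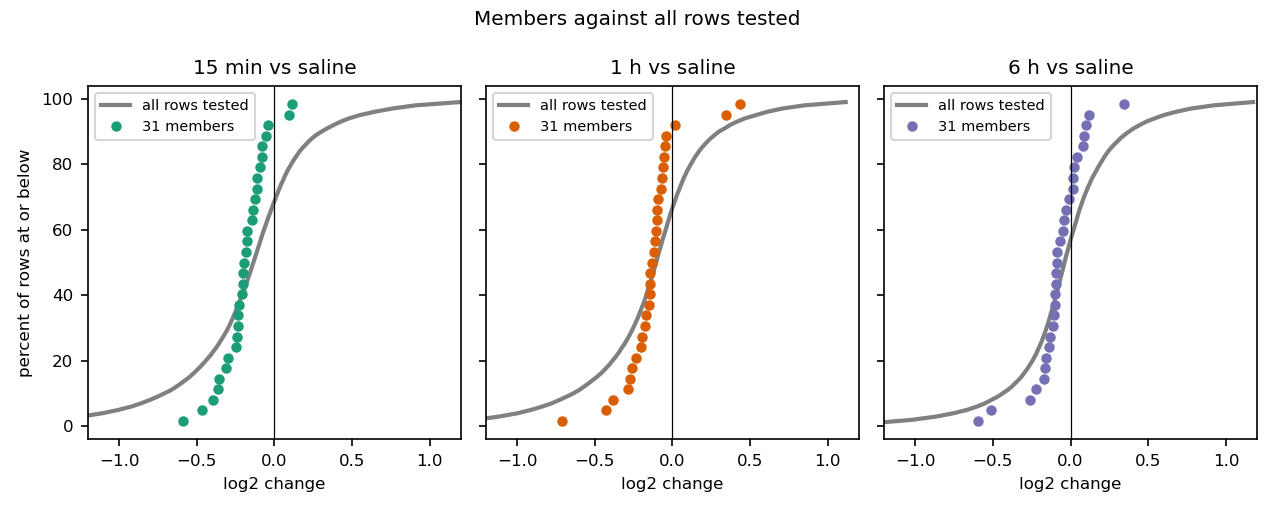
The curve gives, for each comparison with saline, the percent of all rows tested at or below a given log2 change, and points give the same for the 31 genes. The points cross the curve near its middle and rise more steeply, so the genes had a median close to that of all rows (-0.19 against -0.14 at 15 min, -0.13 against -0.11 at 1 h and -0.09 against -0.04 at 6 h) and a narrower range, on the deposited scale. All rows reach down to the filter cutoff of -8.66 and include 1950 rows with a missing value. The 31 genes have every value, and only Cpt1b (saline mean -6.16) lay below -3.77. The narrower range thus cannot be called particular to the set.

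Between the times after insulin, 0 of 31 genes passed the threshold in any pair. For 1 h against 15 min 0% of all rows passed, and 0 genes of the set reached an unadjusted p under 0.05 in either direction (1.13% of all rows lower, 2.37% higher). For 6 h against 15 min 0.00723% of all rows passed, and at an unadjusted p under 0.05 the 5 genes Decr2, Ehhadh, Eci2, Cpt1c and Acaa1a lay higher and 0 lower, against 11.8% and 2.47% of all rows. For 6 h against 1 h 0.0108% of all rows passed, and Decr2, Ehhadh and Cpt1c lay higher and 0 lower at an unadjusted p under 0.05, against 8.91% and 2.17% of all rows. Decr2 was higher at 6 h by 0.27 over 15 min (SE 0.08, adjusted p = 0.233) and by 0.21 over 1 h (SE 0.07, adjusted p = 0.324), or 0.13 and 0.10 after the median shift. Ehhadh was higher at 6 h by 0.50 over 15 min (SE 0.17, adjusted p = 0.249) and by 0.35 over 1 h (SE 0.15, adjusted p = 0.435), or 0.33 and 0.23 under cyclic loess. With all insulin libraries against saline 0 of 31 passed, where 0.119% of all rows did. At an unadjusted p under 0.05, Ppargc1a, Etfa, Hadha and Acad11 lay lower and Acads higher there, against 9.32% and 2.73% of all rows. Of the 31, 27 had a negative change against 67.5% of all rows, and the count was 24 (against 51.2% of all rows) under cyclic loess and 19 (against 46.8%) under the median shift. The F test over the 3 times passed for 0 of 31, where 0.365% of rows did, and 6 reached an unadjusted p under 0.05, where 14.4% did.

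Libraries of a group did not carry the set alike. The library of 15 min replicate 3 had the lowest value of all 11 for 17 of the 31 genes, 6 h replicate 2 for 7 and 1 h replicate 1 for 4. On the deposited scale 15 min replicate 3 also had the fewest genes with a value (32037). It had the lowest median (-2.09) over rows with a value in every library. The share of all rows lowest in each library was not counted, so these counts cannot be called particular to the set. Taken from each gene's mean over the 11 libraries and relative to all rows, the median gene of the set deviated by -0.10 in 15 min replicate 3 and by -0.06 in 6 h replicate 2. Without 15 min replicate 3 the median change of the set at 15 min, relative to all rows, turned from -0.06 to 0.04. In 15 min replicate 3 the markers of interneurons (8 of 8 measured) deviated by a median of 0.66 and those of striatum (8 of 8) by 0.52, and in 6 h replicate 2 those of oligodendrocyte precursors (6 of 6) by 0.62, choroid plexus by -2.00, ependyma by -0.65 and blood by -0.57. The part of these in the values of the set was not tested. Over 465 pairs of genes, the median Pearson correlation of within-group deviations was 0.392 across the 11 libraries, which share the scaling and the tissue makeup of each library. The same value is not given for pairs of other genes, so 0.392 cannot be called particular to the set. Single genes also followed the median deviation of all rows, with correlations of 0.844 for Etfdh and 0.807 for Cpt1a, but -0.553 for Decr2. Acox3 (0.63), Hadha (0.62) and Acaa2 (0.61) had the highest median correlation with the rest, and Cpt1c (-0.37), Ppargc1a (-0.23) and Decr2 (-0.21) ran opposite to it.

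Among genes around the pathway Pdk4, Prkab1 and Pcca were called. Of 82 further genes in 6 lists, 78 passed the filter. In these 1 rose at 15 min, where 0.239% of all rows were called, 1 rose and 2 fell at 1 h, where 0.877% were, and 0 of 78 passed at 6 h, where 0% were. The lists were chosen with earlier results of these data known, so an excess over those shares is no independent result. Pdk4, a PPAR target whose product shuts off pyruvate dehydrogenase, had log2 signals of -1.44, -1.49 and -1.16 in saline, -0.17 and -0.02 at 15 min, -0.32, -0.17 and -0.04 at 1 h, and -1.28, -1.40 and -0.88 at 6 h. Every library of 15 min and 1 h lay far above saline, and 6 h overlapped it. Pdk4 rose by 1.27 at 15 min (SE 0.17, 2.41-fold, adjusted p = 0.0202) and by 1.18 at 1 h (SE 0.15, 2.27-fold, adjusted p = 0.00867). The 15 min call was lost without saline replicate 1, saline replicate 2 or either 15 min library (log2 changes of 1.1965 to 1.3461, adjusted p of 0.0823 to 0.192), and with the 2 groups fitted alone (adjusted p = 0.0889). Of the other PPAR targets measured (14 of 16 with Pdk4), none was called, and Angptl4, an inhibitor of lipoprotein lipase, had log2 changes of -0.61, -0.31 and 0.08 at the 3 times. Ucp2 had a mean of -0.62 in saline and means of -0.08, -0.06 and 0.08 at the 3 times. It was the 1 of the 14 with all insulin libraries above all saline libraries, where 0.718% of all rows were. Of the 14, 6 had positive changes at 15 min, 8 at 1 h and 8 at 6 h.

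Among the 10 genes that control entry through malonyl-CoA and AMPK, Prkab1, a beta subunit of AMPK, had log2 signals of -0.08, -0.03 and -0.19 in saline, -0.45 and -0.53 at 15 min, -0.46, -0.53 and -0.52 at 1 h, and -0.13, -0.13 and -0.18 at 6 h. All 5 libraries of 15 min and 1 h lay below saline and the 6 h libraries overlapped it. Prkab1 fell by 0.40 at 1 h (SE 0.07, 1.32-fold lower, adjusted p = 0.0386). Of 16 measured genes for other mitochondrial acyl-CoA enzymes, Pcca, the alpha subunit of propionyl-CoA carboxylase, had log2 signals of -1.51, -1.59 and -1.40 in saline, -1.87 and -2.10 at 15 min, -2.11, -2.08 and -2.05 at 1 h, and -1.76, -1.91 and -1.84 at 6 h. All 8 insulin libraries lay below saline. Pcca fell by 0.58 at 1 h (SE 0.11, 1.5-fold lower, adjusted p = 0.0416). Both calls at 1 h were lost on leaving out any library other than 6 h replicate 2 (adjusted p up to 0.164 for Prkab1 and 0.180 for Pcca), with changes that then ran from -0.45 to -0.37 and from -0.63 to -0.53. They were also lost with the 2 groups fitted alone (adjusted p = 0.0622 and 0.0589), and for Prkab1 without a variance trend (adjusted p = 0.0555). Under cyclic loess the changes were -0.33 and -0.45 (adjusted p = 0.0992 and 0.0875), and under the median shift -0.27 and -0.44 (adjusted p = 0.209 and 0.0968).

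None of the 15 further peroxisomal genes passed at any time, although all 15 had negative changes at 15 min and 1 h on the deposited scale, where 68.7% and 66.8% of all rows did. Under cyclic loess 10 and 9 of the 15 were negative, and under the median shift 8 and 9. Ech1, a dienoyl-CoA isomerase with the smallest p of that list, had a change of -0.26 at 15 min (SE 0.10, adjusted p = 0.255), or -0.09 after the median shift. Of the 18 partners of the nuclear receptors, Rxra, which encodes the partner that binds DNA with PPAR alpha, had the smallest p, with a change of 0.47 at 1 h (SE 0.13, adjusted p = 0.122). Of 5 measured genes for carnitine supply, Aldh9a1, an aldehyde dehydrogenase of carnitine synthesis, had the smallest p, with a change of 0.14 at 6 h (SE 0.07, adjusted p = 0.721).

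Markers of the tissue were checked across the same libraries. Log2 values of the summed signals ran from 7.33 to 7.51 over all groups for 12 of 12 astrocyte markers and from 7.65 to 7.93 for 9 of 9 neuron markers. The sums of 23 nuclear genes of oxidative phosphorylation ran from 7.91 to 8.09, while those of 13 mitochondrially encoded genes ran from 14.72 to 14.84 in saline and from 14.91 to 15.39 after insulin. Interneuron markers ran from 4.39 to 5.06 in saline and from 4.42 to 5.53 after insulin, and striatum markers from 3.16 to 3.58 and from 3.15 to 4.72. Choroid plexus markers (8 of 9 summed) ran from 5.35 to 5.95 in saline, from 4.84 to 7.07 at 15 min, from 1.85 to 6.48 at 1 h and from 0.57 to 4.60 at 6 h. P2ry12, a defining microglia gene, was near the bottom of the table in every library (-12.01 to -9.40). The part of these differences in the values of the fatty acid oxidation genes was not tested.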

How the data were processed

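RNA was sequenced from 11 hippocampus libraries with a stranded total RNA kit and paired-end reads, per the labels' protocols. Build GRCm38, Partek 6.7 and bcl2fastq are listed, with no roles, in the submitters' processing notes, while no aligner, counter or annotation is named there (not given in the sources used here). The deposited table holds log2 signals per gene symbol, read as base 2, which the authors had brought to 1 common distribution in every library (median -3.2). The number of genes with a value ran from 32037 to 33653 of 46202 rows per library, missing entries stayed missing, and no read counts can be recovered, so the depth is unknown and no counting interval is given. At most 0.0133% of values were equal between 2 libraries.

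Columns were matched to samples by the name in each sample's description. Rows in the lowest 40% by mean were left out, which kept 27721. In R 4.3.3, limma 3.58.1 fitted 4 groups to all 11 libraries with a variance trend, and two-sided moderated tests were adjusted by Benjamini-Hochberg at 0.05 over all rows. Fold changes are 2 raised to a difference of mean log2 signals. The scripts were tested on simulated data. Replicate numbers were not used to pair the libraries, as not every same-numbered pair correlated over 0.1 and no label names a shared source.

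The genes of the set and the lists were chosen with earlier results of these data known. Values in every library are given for genes past the threshold and for the smallest p in each direction against saline, and from each list of other genes for the calls or the smallest p, with a fixed panel, of which Pdk4 and Angptl4 are given and the rest is not reported here. Values per library of Cpt1a, Cpt1c, Hadha, Hadhb, Decr2 and Etfa, and the means of Ucp2, were added after their values were seen. Alternatives covered 11 settings of filter, scaling, pseudocount (0.1 and 1), variance, libraries fitted, replicate block and library weights, and leaving out each of the 11 libraries. Gene positions and promoters are RefSeq's on GRCm38.p6.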

Additional observations from a re-analysis of the deposited data

How the results depend on the processing

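No gene of the set passed the threshold in any comparison under the main settings, and this held under all alternatives except as follows. With library weights 2 genes passed at 1 h (Ppargc1a and Etfa), 1 passed with all insulin libraries against saline (Ppargc1a, adjusted p = 0.0403) and 1 in the F test (Ppargc1a, adjusted p = 0.0498). Leaving out 1 library gave 0 to 1 gene at 1 h, the 1 being Ppargc1a without 1 h replicate 3. The median change of the set relative to all rows ran, on leaving out 1 library, from -0.1114 to 0.0384 for 15 min against saline, from -0.0536 to 0.1365 for 1 h against 15 min, and from -0.0619 to 0.1319 for 6 h against 15 min. For 6 h against 15 min a pseudocount of 0.1 gave 0.058, from -0.0033 without it. The cause was not tested. At 1 h and 6 h against saline these medians moved by less than the spread between libraries under every alternative.

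Counts over all rows also depended on the settings. Against 66 rows past the threshold at 15 min, the alternatives gave 1 (2 groups fitted alone) to 140 (library weights), and against 243 at 1 h they gave 138 to 1751, with 42 to 477 on leaving out 1 library. At 6 h every alternative gave 0. The split of higher and lower calls moved with the scaling, from 12 and 54 at 15 min to 14 and 23 with cyclic loess and 20 and 26 with a common median, and from 36 and 207 at 1 h to 57 and 121, and 94 and 107. The F test counted 101 rows, and 40 to 725 under the alternatives, and all insulin libraries against saline 33, and 0 to 309. The 2 rows of 6 h against 15 min became 0 to 6, and the 3 rows of 6 h against 1 h became 0 to 16.

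With the replicate number as a block (replicate block), 0 genes of the set passed in any comparison, as without it. Over all rows 38 then passed at 15 min, 159 at 1 h, 40 in the F test and 0 with all insulin libraries against saline, and the 1 h calls of Prkab1 (adjusted p = 0.0537) and Pcca (adjusted p = 0.0598) were lost. Same-numbered libraries correlated in their deviations from -0.056 to 0.237, with 7 of 15 pairs over 0.1 against 5 of 30 pairs of unlike number, and 6 of 11 libraries correlated best with their own number. Deviations sum to 0 within a group, so these pairs are not independent. The 2 libraries of 15 min mirror each other, with correlations of -0.25 (replicate 1) and 0.25 (replicate 3) with 6 h replicate 2. The counts are thus at most a weak hint of shared deviations, from the data and not the design. Since not every pair was over 0.1, the numbers were not taken as pairs. The sample descriptions end in numbers that run by group, and no label says whether these follow an order of handling. If they do, that order and insulin cannot be told apart. The 15 min group holds 2 libraries and depth is unknown, and a p that misses the threshold does not show that levels were equal.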
